A study of Mus musculus with 4 samples.

Results

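Cathepsin K, the metalloproteinase inhibitors TIMP1 and TIMP3, the membrane protease ADAM12 and matrix Gla protein are 5 secreted or cell-surface products of lung fibroblasts that cut the extracellular matrix, restrain the enzymes that cut it, or keep it free of mineral. Their genes, Ctsk, Timp1, Timp3, Adam12 and Mgp, were found by symbol, and all 5 were among the 2979 genes of the deposited table. The 5 genes were chosen by their difference between the 2 groups in these same 4 libraries, so their levels and folds are given as a description with no test. The cells were fresh isolates of lung fibroblasts from BALB/c mice, 4 weeks old and wild-type, either untreated (control, n = 2 libraries) or kept for 3 hours with 3 human chemokines made as recombinant proteins, CXCL1 (8 nM), CXCL2 (2 nM) and CXCL8 (20 nM) (chemokine, n = 2 libraries). The series addresses how these neutrophil-attracting chemokines affect lung fibroblasts. The labels do not say whether the libraries of a group came from separate cultures or animals, so the spread between them may be technical. In bulk RNA, fewer cells of a type and less RNA per cell cannot be told apart.

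Matrix turnover in connective tissue rests on a balance between proteases and inhibitors. Cathepsin K is a lysosomal cysteine protease able to cleave the triple helix of collagen, best known from osteoclasts. ADAM12 is a membrane-anchored metalloproteinase that sheds growth factor precursors and cleaves insulin-like growth factor binding proteins. TIMP1 is a diffusible inhibitor of matrix metalloproteinases, whereas TIMP3 binds to the matrix and also inhibits ADAM and ADAMTS proteases. Matrix Gla protein carries residues that are carboxylated with the help of vitamin K, binds calcium and bone morphogenetic proteins (BMPs), and protects soft tissue from calcification.

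Values are in RPKM, reads scaled to gene length and to the total reads of the library, which allows levels to be set side by side between genes. The implied library totals ran from 28603764 to 36863654 reads, and Mgp, Ctsk, Timp1 and Timp3 had from 1873 to 48643 reads in each library. The table is the authors' selection of genes that differ, since the 2 groups do not overlap in 100% of its 2979 genes, and every statement below is about genes inside that selection. Of 14 fibroblast markers 6 were listed, with a summed level of 1781 to 1790 RPKM in control and 1899 to 1903 RPKM in chemokine libraries, of which 5 were higher, such as Col1a1 (means 474 and 554 RPKM), and Fn1, fibronectin, was lower (293 and 190.4 RPKM). The summed level of the 2 listed of 9 macrophage and osteoclast markers, Mrc1 and Itgam, was 22.4 to 22.5 RPKM in control and 16.1 to 17.2 RPKM in chemokine libraries. That of the 2 listed of 10 endothelial markers, Sox18 and Pecam1, was 3.18 to 3.26 and 5.43 to 6.16 RPKM. The 2 listed of 8 epithelial markers, Krt18 and Sftpb, summed to 8.31 to 8.47 and 10.1 to 10.5 RPKM. Krt18 was higher (means 7.18 and 9.92 RPKM) and Sftpb lower (1.21 and 0.361 RPKM). The 4 listed of 6 smooth muscle markers, Acta2, Tagln, Cnn1 and Myh11, summed to 4359 to 4461 and 5124 to 5226 RPKM. Most of that sum was Acta2 (means 2471 and 2784 RPKM) and Tagln (1799 and 2237 RPKM), and which cells expressed them was not tested. Myh11 alone was lower (14.2 and 11.1 RPKM). Of 5 chondrocyte markers only Sox9 was listed, at 3.74 to 4.47 and 2.91 RPKM. No listed marker was at 0, and the part of other cell types in the values below was not tested.

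In the reference build GRCm38, Mgp (ENSMUSG00000030218) spans chr6:136872435-136875823 on the minus strand and Ctsk (ENSMUSG00000028111) spans chr3:95499256-95509362 on the plus strand. Timp1 (ENSMUSG00000001131) lies at chrX:20870166-20874735 on the plus strand, wholly within an intron of Syn1, a synapsin gene of the opposite strand, with which it shares 0 exon bases. Timp3 (ENSMUSG00000020044) lies at chr10:86300372-86349506 on the plus strand, inside Syn3, the synapsin gene of the opposite strand there. Timp3 shares 1733 of its 8144 exon bases (21.3%) with Syn3, which was not in the table, and without a stated strand setting reads of the shared bases cannot be told apart. Adam12 (ENSMUSG00000054555) spans chr7:133883199-134232146 on the minus strand and shares 0 exon bases with the 3 genes annotated inside its bounds.

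The promoters are shown because the 3 that RefSeq's table for GRCm38.p6 held differ in base composition, and because Timp1 and Timp3, inhibitors of a single family, lay on opposite sides of the comparison. Each line runs 5′ to 3′ on the plus strand and stops before the first base of any annotated transcript, and capitals mark a GC box (GGGCGG) or a CCAAT box, searched on both strands.
Ctsk, chr3:95498960-95499209: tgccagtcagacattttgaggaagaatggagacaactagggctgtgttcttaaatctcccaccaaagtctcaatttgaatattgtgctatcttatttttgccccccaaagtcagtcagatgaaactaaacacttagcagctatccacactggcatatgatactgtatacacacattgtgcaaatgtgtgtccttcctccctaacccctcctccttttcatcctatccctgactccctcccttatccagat
Timp1, chrX:20869916-20870165: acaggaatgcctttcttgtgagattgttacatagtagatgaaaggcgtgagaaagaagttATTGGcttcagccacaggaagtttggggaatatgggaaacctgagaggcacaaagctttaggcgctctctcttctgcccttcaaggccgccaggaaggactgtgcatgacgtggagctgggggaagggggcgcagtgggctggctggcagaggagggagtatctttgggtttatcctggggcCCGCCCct
Timp3, chr10:86300162-86300371: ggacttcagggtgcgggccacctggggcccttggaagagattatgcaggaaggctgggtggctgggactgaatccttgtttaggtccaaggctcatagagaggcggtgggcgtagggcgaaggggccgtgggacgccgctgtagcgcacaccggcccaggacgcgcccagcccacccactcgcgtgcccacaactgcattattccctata
Over the 250 bases before the RefSeq start, Ctsk had 0 CpG dinucleotides and 43.2% GC, Timp1 had 6 CpG and 54.4% GC, and Timp3 had 18 CpG and 65.6% GC, against a median of 6 CpG and 52.4% GC over 32817 promoters. A promoter without CpG was found in 7.87% of them, and 78.3% had fewer than Timp3. A GC box was found 1 time in Timp1 and 1 time in Timp3, where it lies in the 40 bases not printed, and in 32.7% of all promoters. The CCAAT box of Timp1 was found in 33.8% of all promoters. The letters TGANTCA and TGAGTAA of AP-1 sites and TATAAA of the TATA box were in none of the 3 windows, and in 6.75%, 2.25% and 12.4% of all promoters, which says nothing of whether these factors bind. Mgp and Adam12 are not in the promoter table.

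Cathepsin K was higher after chemokine exposure. Ctsk stood at 38.9 RPKM in control 1 and 40.6 RPKM in control 2, on 1873 and 2265 reads, and at 51.0 RPKM in chemokine 1 and 55.0 RPKM in chemokine 2, on 2206 and 2817 reads. Both chemokine libraries were above both controls, with chemokine 2 the highest. The means were 39.8 ± 1.24 and 53.0 ± 2.85 RPKM (SD, n = 2 per group), an increase of 33.4%, and the log2 fold change on the log2(RPKM + 1) scale was 0.41 ± 0.05 (SE). The nearest libraries of the 2 groups were 10.4 RPKM apart, 2.58 times the widest gap of 4.03 RPKM inside a group, the least clear separation of the 5 genes. The chemokine libraries differed from each other by 7.59%, where counting error alone has an SD of 2.84%.

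ADAM12 was lower. Adam12 stood at 34.3 and 34.8 RPKM in the control libraries and at 25.9 and 24.7 RPKM in chemokine 1 and 2. Every control value was above every chemokine value. The means were 34.6 ± 0.414 and 25.3 ± 0.841 RPKM (SD, n = 2 per group), a change of -26.8%, and the log2 fold change was -0.44 ± 0.05 (SE). Its reads are not known exactly, because the length implied by its values, 8273 bases as the smallest that gives whole reads, is not the 10573 bases of all its annotated exons.

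The pair of TIMPs went opposite ways in the deposited values. With a smooth trend in exon length and GC content removed from each library, Timp3 stayed lower, at -0.15 ± 0.04 (SE) on the log2 scale. Timp1 then stood at -0.04 ± 0.05 (SE), nearer to 0 than its SE. Timp1 was the most abundant of the 5 genes and the 16th highest of the 2979 listed genes, at 1318 and 1321 RPKM in the control libraries and 1674 and 1618 RPKM in chemokine 1 and 2. The controls were almost level with each other, differing by 0.209% on 37289 and 43236 reads, while the chemokine libraries differed by 3.39% on 42517 and 48643 reads, where counting error has an SD of 0.664%. The means were 1319 ± 1.95 and 1646 ± 39.5 RPKM (SD, n = 2 per group), an increase of 24.8%, with a log2 fold change of 0.32 ± 0.05 (SE). Timp3 stood at 77.7 and 79.6 RPKM in the control libraries, on 20165 and 23901 reads, and at 58.9 and 56.5 RPKM in the chemokine libraries, on 13712 and 15580 reads. Both chemokine values lay below both controls, 18.9 RPKM apart at the nearest, against at most 2.35 RPKM inside a group. The means were 78.7 ± 1.34 and 57.7 ± 1.66 RPKM (SD, n = 2 per group), a change of -26.7%, with a log2 fold change of -0.44 ± 0.05 (SE). These values include any reads of Syn3 over the shared exon bases.

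Matrix Gla protein had the largest fold of the 5 genes and the 10th highest of all 2979 in the authors' deposited table, 1.70. Mgp stood at 55.1 RPKM in control 1 and 54.0 RPKM in control 2, on 2083 and 2361 reads, and at 92.9 RPKM in chemokine 1 and 92.1 RPKM in chemokine 2, on 3153 and 3701 reads. Within each group the libraries were nearly level, with differences of 2.06% and 0.828% that are below the counting SD of 3.01% and 2.42%. The means were 54.5 ± 0.794 and 92.5 ± 0.542 RPKM (SD, n = 2 per group), an increase of 69.6%, and the log2 fold change was 0.75 ± 0.04 (SE). The nearest libraries of the 2 groups were 37.0 RPKM apart, 32.9 times the widest gap inside a group, which was 1.12 RPKM. No test is given for any of the 5, and an exact permutation of 2 against 2 libraries cannot give a two-sided p below 0.333.

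**Figure D1:**
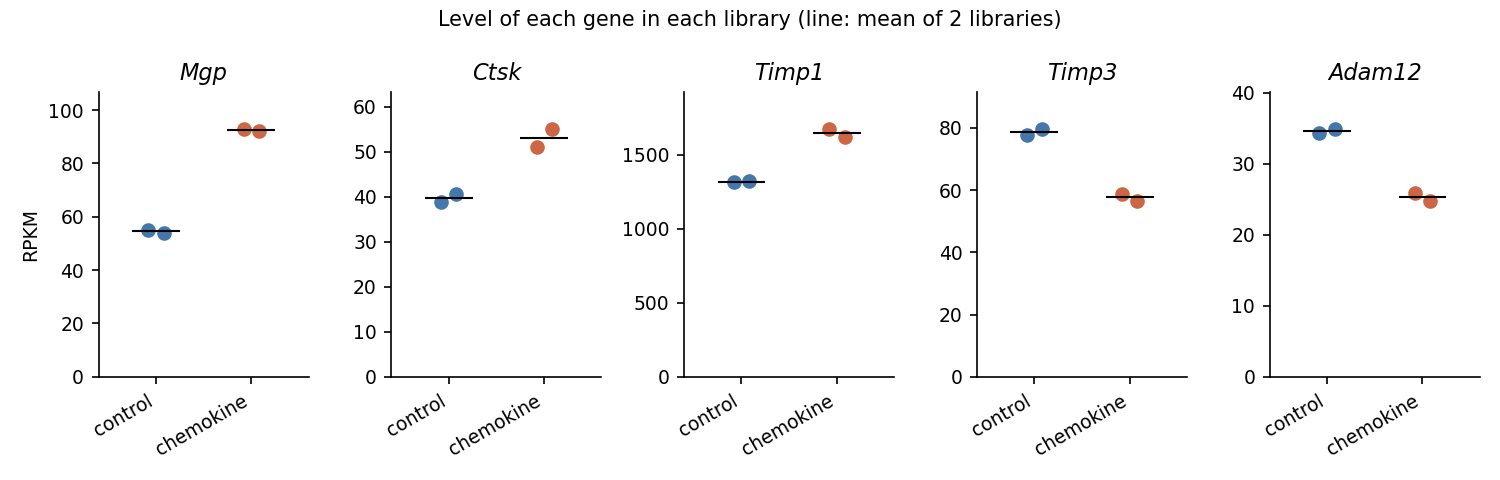
Level in RPKM (vertical axis, from 0, with its own scale per gene) of Mgp, Ctsk, Timp1, Timp3 and Adam12 in each control and chemokine library (points), with the mean of the 2 libraries of a group as a line. Mgp moves from 54.5 to 92.5 RPKM with little spread, Ctsk and Timp1 are higher and Timp3 and Adam12 lower in both chemokine libraries.

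The order of the levels was not the same in the 2 groups. In both control libraries Timp1 was followed by Timp3, Mgp, Ctsk and Adam12. In both chemokine libraries Mgp stood above Timp3, at 92.1 to 92.9 against 56.5 to 58.9 RPKM, where in the controls it had stood below, at 54.0 to 55.1 against 77.7 to 79.6 RPKM. Timp3 and Ctsk, far apart in the controls, became neighbours after chemokine exposure, with 56.5 to 58.9 RPKM for Timp3 and 51.0 to 55.0 RPKM for Ctsk. These shifts are those of the deposited values. With a smooth trend in exon length and GC content removed, the log2 fold changes were smaller, 0.41 for Mgp, 0.08 for Ctsk and -0.15 for Timp3. Whether the order still shifted then was not tested. Adam12 was the lowest in all 4 libraries.

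A ratio of 2 genes inside a library does not depend on how libraries are scaled to each other, but it does depend on the length and GC trend where the genes differ in length, as Timp1 (888 bases) and Ctsk (1512 bases) do from Timp3 (8144 bases). The ratio of Timp1 to Timp3, the diffusible over the matrix-bound inhibitor, was 17.0 and 16.6 in control 1 and 2 and 28.4 and 28.6 in chemokine 1 and 2. Its mean was 1.70 times higher in the chemokine group, from 16.8 ± 0.261 to 28.5 ± 0.139 (SD, n = 2 per group), a log2 change of 0.77. The single genes stood at -0.04 ± 0.05 for Timp1 and -0.15 ± 0.04 for Timp3 (SE) with the trend removed. The ratio of Ctsk to Timp3 was 0.5003 and 0.510 in the control and 0.867 and 0.974 in the chemokine libraries. The RNA levels of these 2 genes thus came nearer, but Ctsk encodes a cysteine protease and Timp3 an inhibitor of metalloproteinases. With the trend removed Ctsk stood at 0.08 and Timp3 at -0.15. The ratio of Ctsk to Timp1 did not separate the groups, at 0.0295 and 0.0308 in the control and 0.0305 and 0.0340 in the chemokine libraries. The ratio of Mgp to Timp1 was 0.0418 and 0.0409 in the control and 0.0555 and 0.0569 in the chemokine libraries, so Mgp was higher also relative to Timp1, by 1.36 times.

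The ratio of Adam12 to Timp3 hardly moved. It was 0.441 and 0.438 in control 1 and 2 and 0.440 and 0.437 in chemokine 1 and 2, and the groups overlapped. Its mean was 0.439 ± 0.00222 and 0.439 ± 0.00192 (SD, n = 2 per group), a log2 change of -0.0021 beside a pooled SD of 0.0068. With 1 library left out at a time that change ran from -0.0073 to 0.0030. Unequal change would show in such a ratio, and its constancy does not show that either gene was unchanged. The ratio is one of deposited values. With the length and GC trend removed Adam12 stood at -0.09 ± 0.04 and Timp3 at -0.15 ± 0.04 (SE). Whether the ratio stayed level then was not tested.

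**Figure D2:**
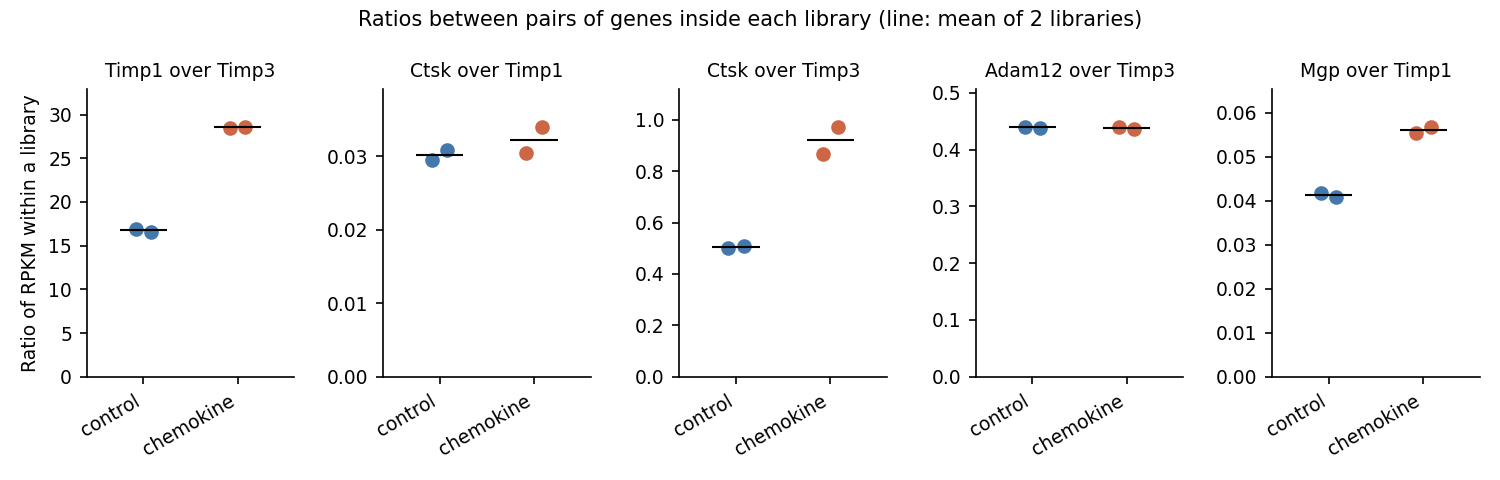
Ratio of RPKM between pairs of the 5 genes inside each library (vertical axis, from 0, own scale per pair), with the mean of the 2 libraries of a group as a line. Timp1 over Timp3 goes from 16.8 to 28.5, Adam12 over Timp3 stays at 0.439, and the libraries of the 2 groups overlap for Ctsk over Timp1.

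What the genes that were higher share, beyond the choice, is a short transcript. The annotated exons together measured 888 bases for Timp1, 1187 for Mgp and 1512 for Ctsk, all in the shortest of 5 equal classes of the listed genes by length, which runs from 231 to 2097 bases. Timp3, with 8144 bases, was in the next to longest class and Adam12, with 10573 bases, in the longest, against a median of 5710.5 bases over listed genes. The smallest length that the values of Adam12 imply, 8273 bases, lies within the next to longest class, from 6957 to 10150 bases. Annotated lengths were used for the classes and for the trend removed below. GC content, from 47.3% for Timp3 to 52.6% for Timp1, differed little from the median of 49.5%. Fold went with length over the whole table. In the shortest class the median of the authors' fold was 1.28 and 97.0% of 596 genes were higher, and in the longest class it was 0.74 and 2.52% of 595 genes were higher. Beside these medians, the fold of the authors' deposited table was 1.70 for Mgp, 1.34 for Ctsk and 1.25 for Timp1. It was 0.735 for Timp3, where the median of its class was 0.78, and 0.734 for Adam12.

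With a smooth trend in exon length and GC content removed from each library, the log2 fold change of Mgp was 0.41 ± 0.05 (SE), higher than that of 95.6% of 2953 genes. Timp3 was at -0.15 ± 0.04, Adam12 at -0.09 ± 0.04 and Ctsk at 0.08 ± 0.04 (SE). Timp1 turned from 0.32 to -0.04 ± 0.05 (SE), so its direction depends on this step. The part that transcript length has in the difference between groups was not tested.

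**Figure D3:**
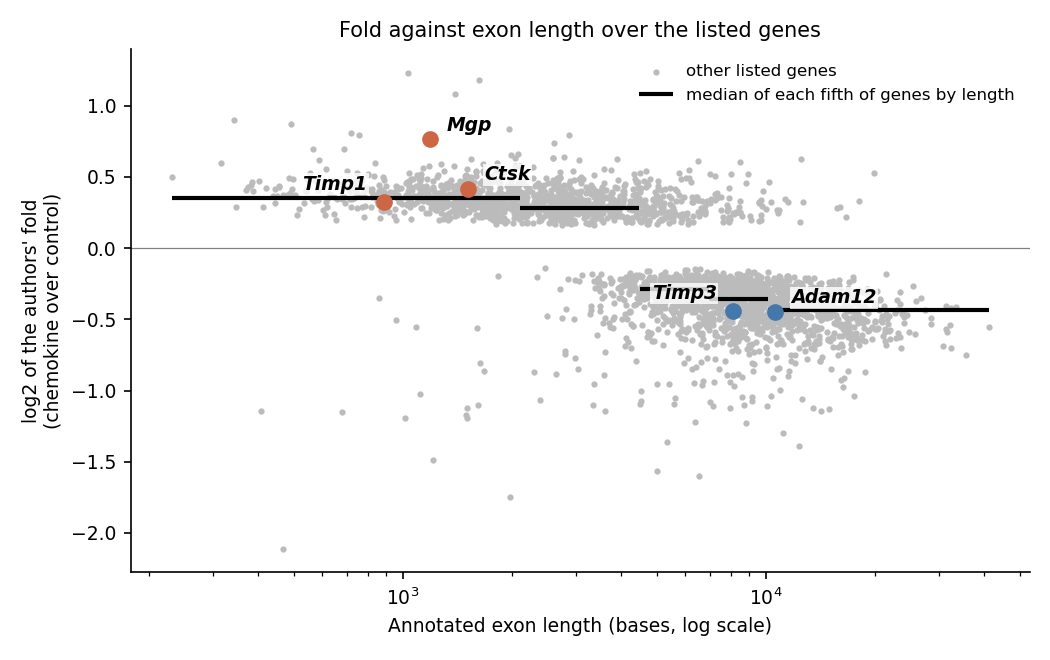
Log2 of the authors' fold, chemokine over control (vertical axis), against annotated exon length in bases (horizontal axis, log scale) for the listed genes found in the annotation (grey), with the 5 genes named (red higher, blue lower) and black bars for the median of each of 5 equal classes of genes by length. Mgp lies well above the bar of its length class, and Timp1, Timp3, Ctsk and Adam12 lie near theirs.

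The other genes of matrix turnover were taken from 12 lists of proteases, inhibitors, cross-linking enzymes, calcification genes and related signals. Of their 152 genes besides the 5, 33 were in the table and tested, of which 20 rose and 13 fell (limma, threshold 0.05), with adjusted p from 0.000142 to 0.0118. Over all 2956 tested genes 42.8% rose and 57.2% fell, so every tested gene of this selected table passed, and the count says nothing particular of the lists. The median log2 fold change of the 33 was 0.23, against -0.23 over all tested genes. With the length and GC trend removed those medians were -0.05 and -0.00, and 6 rose and 9 fell, where 20.2% rose and 20.4% fell over all 2953 genes. Tested against a fold of 1.2 instead of 1, 2 of the 33 rose and 3 fell, where 3.28% rose and 10.5% fell over all genes. The adjusted p-values of both tests were computed inside the authors' selection, so they do not stand for all genes measured. Passing either test is no independent evidence of a change. Below, a gene that turned is one whose log2 fold change took the other sign. Each of the 33 that turned lost its call there, except Ctsz.

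Metalloproteinase genes were listed from 3 families besides Adam12. Both listed matrix metalloproteinases of 23 rose, though not with the trend removed, the stromelysins Mmp3, from 55.2 ± 2.88 to 67.5 ± 2.59 RPKM, and Mmp10, from 121 ± 3.27 to 145.3 ± 4.82 RPKM (SD, n = 2 per group). Their log2 fold changes were 0.29 ± 0.05 and 0.26 ± 0.05 (SE), and -0.02 and -0.05 with the length and GC trend removed. All 3 listed ADAM genes besides Adam12 fell, of 11. With libraries scaled by the median ratio of listed genes Adam9 and Adam10 turned upward, but with their call lost. Adam19, a metalloproteinase that sheds neuregulin, had a log2 fold change of -0.31 ± 0.05 (SE), and with the trend removed it and Adam10 lost their call (limma, adjusted p = 0.0637 and 0.108) while Adam9 stayed lower, at -0.20. Adam19 shares exon bases with 2 antisense genes, so its reads are uncertain. The listed ADAMTS genes all fell, 3 of 24. Adamts12 fell from 6.50 ± 0.0145 to 3.25 ± 0.554 RPKM, and Adamts6 went from 7.52 ± 0.0788 to 4.05 ± 0.448 RPKM (SD, n = 2 per group). Their log2 fold changes, -0.82 ± 0.08 and -0.76 ± 0.07 (SE), were larger than that of Adam12, and they also passed the 1.2-fold test, with limma adjusted p of 0.00366 and 0.00306. With the trend removed they stood at -0.48 and -0.47, and Adamts12 no longer passed it (limma, adjusted p = 0.107). Adamts14, a procollagen N-proteinase, had a log2 fold change of -0.30 ± 0.06 (SE).

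Lysosomal proteases and their inhibitors were higher together, except that with the length and GC trend removed Ctsz and both cystatins turned. Beside Ctsk, 2 of 14 other cathepsins were listed and both rose. Ctsf, cathepsin F, went from 4.42 ± 0.181 to 6.14 ± 0.432 RPKM and Ctsz, cathepsin Z, from 114 ± 1.69 to 136 ± 3.77 RPKM (SD, n = 2 per group). On the log2 scale Ctsf stood at 0.40 ± 0.06 and Ctsz at 0.26 ± 0.05 (SE). The 2 listed of 4 cystatins, which inhibit cysteine cathepsins, also rose, Cst3, cystatin C, by 0.31 ± 0.05 and Cstb, cystatin B, by 0.26 ± 0.05 (SE) on the log2 scale. With the trend removed Ctsf stood at 0.46, while Ctsz turned to -0.14, Cst3 to -0.08 and Cstb to -0.03. Ctsz was then called lower (limma, adjusted p = 0.046), and Cst3 and Cstb lost their call (limma, adjusted p = 0.147 and 0.612). Of 15 genes of the plasminogen system, serpins and serine proteases 5 were listed, of which 4 rose and 1 fell, with Serpinf1 turning when the trend was removed and Serpinb2 with median-ratio scaling. Serpinb2 shares 291 of its exon bases (12.4%) with Serpinb10, an unlisted gene of the same strand. Serping1, the C1 inhibitor, stood at 0.42 ± 0.07 (SE), and with the trend removed at 0.15, with its call lost (limma, adjusted p = 0.075), while Serpine2, protease nexin 1, went from 0.24 to 0.53.

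Genes for partners of the TIMPs and for IGF binding proteins were also listed. Cd63, a tetraspanin that binds TIMP1 at the cell surface, rose, with means of 647 ± 23.2 and 794 ± 16.6 RPKM (SD, n = 2 per group), and Lrp1, the scavenger receptor that takes up TIMP3 and protease complexes, had a log2 fold change of -0.30 ± 0.06 (SE). Lrp1 turned to 0.01 with the trend removed and lost its call under median-ratio scaling, at -0.07, and Cd63 lost its call under scaling to equal sums. All 3 listed of 7 IGF binding proteins rose, with Igfbp6 turning to -0.05 when the trend was removed. They were led by Igfbp7, from 403 ± 9.50 to 558.7 ± 19.2 RPKM (SD, n = 2 per group), and Igfbp6, at 0.37 ± 0.06 (SE). Igfbp7 also passed the 1.2-fold test (limma, adjusted p = 0.0185), but not without control 1 or without control 2, and not with equal sums. With the trend removed Igfbp7 stood at 0.06 ± 0.04 (SE) and lost its call at any fold (limma, adjusted p = 0.282). It shares 85 exon bases with Polr2b. Of 12 genes of collagen cross-linking and hydroxylation 4 were listed, of which 1 rose and 3 fell, with Plod3 turning under scaling to equal sums and Lox under median-ratio scaling. The largest was Loxl4, a lysyl oxidase, at -0.36 ± 0.05 (SE). Plod3 shares 529 of its exon bases (11.7%) with Znhit1, a listed gene of the opposite strand.

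Among 17 other genes of vitamin K use and calcification 2 were listed and both rose, though Spp1 turned to -0.11 with the trend removed. Vkorc1, the enzyme that recycles vitamin K for the carboxylation of Gla proteins such as matrix Gla protein, stood at 22.2 and 20.6 RPKM in the control and 29.6 and 34.9 RPKM in the chemokine libraries. Its log2 fold change was 0.57 ± 0.08 (SE), and it passed the 1.2-fold test (limma, adjusted p = 0.0234), but not without control 2, with equal sums (log2 fold change 0.37) or with the trend removed (0.22). It shares 401 of its exon bases (47.7%) with Gm21974, a listed gene of the same strand, so its reads are uncertain. The carboxylase gene Ggcx was looked for but is not among the genes the authors selected, so its level is not known here. Spp1, osteopontin, an acidic phosphoprotein of mineralised and inflamed tissue, had a log2 fold change of 0.21 ± 0.05 (SE). It shares 309 of its exon bases (18.75%) with Gm42793, an unlisted gene of the same strand, so its reads are uncertain too.

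BMP signalling, which matrix Gla protein can restrain by binding the ligands, had 5 of 16 genes in the table, of which 3 rose and 2 fell, with Id1, Id2 and Bmpr2 turning when the trend was removed and Grem1 under median-ratio scaling. The target genes Id3 and Id1, inhibitors of differentiation, rose, with log2 fold changes of 0.37 ± 0.05 for Id3 and 0.34 ± 0.04 (SE) for Id1, which stood at 0.02 and -0.05 with the trend removed. Bmpr2, the type II BMP receptor, fell, with means of 14.1 ± 0.164 and 10.2 ± 0.323 RPKM (SD, n = 2 per group) and passed the 1.2-fold test (limma, adjusted p = 0.0422), but not without control 1 or without control 2. Its log2 fold change of -0.43 turned to 0.02 with the trend removed. Outside the largest changes, 4 of the 33 lost their call when 1 control library was left out, a fit in which the spread comes from the chemokine libraries alone and the lone control is assumed to vary like them. Igfbp4 did so without control 1 (limma, adjusted p = 0.101), Plod3 and Adam10 without control 2 (limma, adjusted p = 0.0913 and 0.0582), and Lox without either (limma, adjusted p = 0.0907 and 0.0637). Their log2 fold changes were then 0.16 for Igfbp4, 0.16 for Plod3, -0.18 for Adam10 and -0.16 and -0.17 for Lox, against 0.24, 0.18, -0.20 and -0.17 with all libraries.

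**Figure D4:**
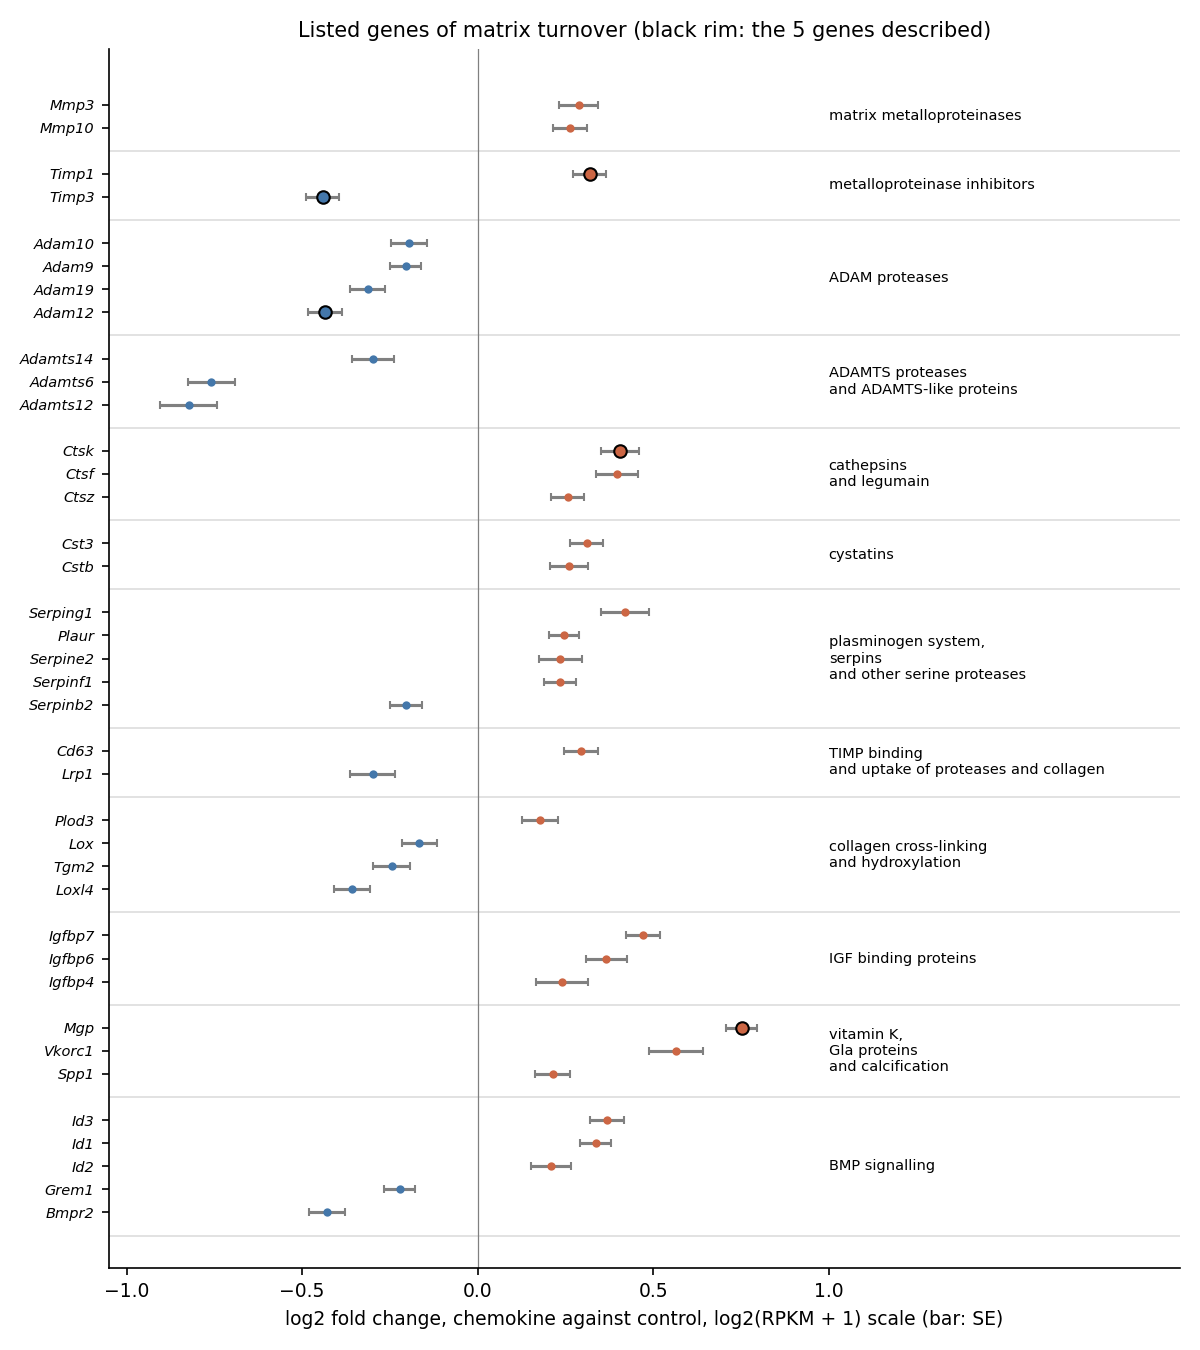
Log2 fold change, chemokine against control, on the log2(RPKM + 1) scale with SE bars (horizontal axis) for the listed genes of the matrix turnover lists, red for higher and blue for lower, with a black rim for the 5 genes described. ADAM and ADAMTS genes lie on the lower side and cathepsins, cystatins, IGF binding proteins and calcification genes on the higher side, a split that with the length and GC trend removed turns for Ctsz, Cst3, Cstb, Igfbp6 and Spp1, and under median-ratio scaling for Adam9 and Adam10. Of these only Ctsz was then called, as lower (limma, adjusted p = 0.046).

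The listed genes whose pattern over the 4 libraries was most like each of the 5 were found by the Euclidean distance between log2(RPKM + 1) values centred on the gene's own mean. Bmpr2 was nearest to Adam12, at a distance of 0.00755, and also nearest to Timp3, at 0.0148. Dlc1 was among the 3 nearest of both, at 0.0187 and 0.0151, and the others were Mdn1, a ribosome assembly factor, for Adam12 and Usp47, a deubiquitinase, for Timp3. For Timp1 they were Cep57l1 (0.0168), Tap2, the peptide transporter of antigen presentation (0.0191), and the thymidine kinase Tk1 (0.0208). For Ctsk they were the ribosomal protein gene Rpl34 (0.0189), Eapp (0.0191) and Uqcr10, a subunit of respiratory complex III (0.02). Mgp had no neighbour so close, with Gm17511 at 0.0357, the acute phase gene Saa3 at 0.111 and Gm13889 at 0.12. Its log2 fold change was the 4th highest of the tested genes, so few genes could lie near it. The genes nearest Timp3 and Adam12 had from 13755 to 21836 exon bases, and those nearest Mgp, Ctsk and Timp1 from 342 to 5851. With the length and GC trend removed Bmpr2 stood at 0.02, Timp3 at -0.15 and Adam12 at -0.09. The part of length in these likenesses was not tested. These distances rest on 4 libraries that all genes share.

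Listed genes next to the 5 on their chromosomes had folds of both kinds. H2afj, a histone H2A gene 62.4 kb from Mgp, stood at a fold of 1.39 by the authors' deposited table, and Mgst1, 1264 kb away on the other side, at 1.24. Setdb1 and Rprd2, 142 and 251 kb from Ctsk, had folds of 0.783 and 0.658, on the other side of 1 from Ctsk. Ndufb11, 252.5 kb from Timp1, had a fold of 1.30 and Wdr44, 2818 kb away, of 0.772. Polr3b and Nt5dc3 beside Timp3, at 1573 and 429 kb, had folds of 0.767 and 0.642, and Ctbp2 and Dock1 beside Adam12, at 759 and 439 kb, of 0.869 and 0.755, on the same side as these genes.

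**Figure D5:**
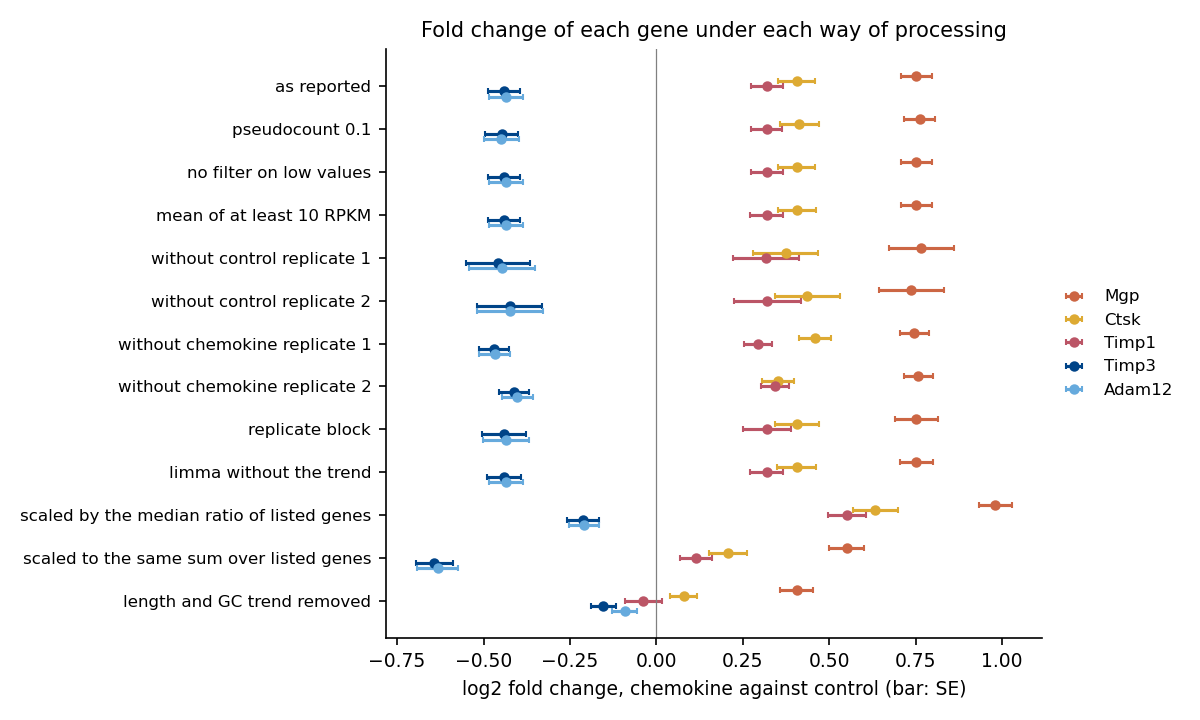
Log2 fold change, chemokine against control (horizontal axis, with SE bars), of the 5 genes as reported and under each other way of processing (vertical axis). Mgp stays the highest, from 0.41 to 0.98, Timp3 and Adam12 stay below 0, and Timp1 turns to -0.04 with the length and GC trend removed.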

How the data were processed

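RNA sequencing gave 1 value per gene in each of 4 libraries, 2 control and 2 chemokine, grouped by the sample titles. Per the submitters' processing notes, TopHat2 2.0.7, DESeq2 and build GRCm38/mm10 were used, with no role given. The counter, strand setting, annotation and rule of gene selection are not stated in what was used here. The values are deposited as RPKM, worked out from the values: with library totals found from them, 1176 of 2979 genes, among them 4 of the 5, equal whole reads over the union of exons in GENCODE M21 within a relative error of 1e-12. The deposited fold is a linear ratio of chemokine over control by the authors. Read-based intervals and SDs cover counting error only.

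From these, limma 3.58.1 (R 4.3.3) was fitted with a mean-variance trend to log2(RPKM + 1) over the 2956 genes averaging 1 RPKM or more, in place of a count test, with two-sided p adjusted by Benjamini-Hochberg at 0.05. limma's treat tested a fold of at least 1.2. Such folds understate the change of low genes. The fit was tested on simulated data. Members, lists and markers were chosen with earlier results of these data known. Named genes are the 5, the largest changes in the 12 lists, the 3 genes nearest each of the 5 in pattern, and neighbours, and others were named after their values were seen. Overlapping genes and near-identical copies can share reads. Alternatives were the pseudocount, filter, trend, scaling, length and GC correction by splines with 4 degrees of freedom, block, and each library left out.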

Additional observations from a re-analysis of the deposited data

How the results depend on the processing

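The 5 genes kept their direction under every alternative tried, except Timp1 with the length and GC trend removed (-0.0384). Their log2 fold changes, 0.75 for Mgp, 0.41 for Ctsk, 0.32 for Timp1, -0.44 for Timp3 and -0.44 for Adam12, became 0.98, 0.63, 0.55, -0.21 and -0.21 when libraries were scaled by the median ratio of listed genes, which moved the median of all genes from -0.23 to -0.01. They became 0.55, 0.21, 0.11, -0.64 and -0.63 when scaled to the same sum, which moved it to -0.40, and 0.41, 0.0789, -0.0384, -0.15 and -0.0919 with the length and GC trend removed. Without 1 library at a time they ran from 0.74 to 0.77, 0.35 to 0.46, 0.29 to 0.34, -0.47 to -0.41 and -0.47 to -0.40. Of all listed genes 1264 rose and 1692 fell. These counts became 1264 and 804 with median scaling, 520 and 1696 with equal sums, and 596 and 603 with the trend removed. The filter at 10 RPKM left only 1789 genes to test, of which 1098 rose and 691 fell. The 97 rises and 310 falls past 1.2-fold became 181 and 518 with a pseudocount of 0.1, 52 and 86 among genes averaging 10 RPKM or more, 1231 and 101 with median scaling, 14 and 1482 with equal sums, and 69 falls with the trend removed. Without 1 library they ran from 33 to 490 and from 146 to 708. Of the 33 other matrix turnover genes, the 20 rises became 8 with equal sums and 6 with the trend removed, and the 13 falls became 4 with median scaling. Past 1.2-fold, by limma's treat, the 2 rises became 19 with median scaling, 0 with equal sums (0 at an unadjusted p under 0.05) and from 0 to 4 without 1 library (the 0 being without control 2, with 4 at an unadjusted p under 0.05). The 3 falls became 0 among genes averaging 10 RPKM or more (1 at an unadjusted p under 0.05), 11 with equal sums and 1 with the trend removed. At the 10 RPKM filter only 28 of the 33 were tested, and Adamts6 and Adamts12 were left out. The deviations of same-numbered libraries had only a weak, negative correlation over genes (r = -0.156), so the numbers are not taken to pair them. With the replicate number as a block, 155 genes rose past 1.2-fold, and with crossed numbers, added after seeing the data, 188. Beyond the genes that the filter left out, the causes of these shifts were not tested. Counting error alone has an SD of 2.42% to 3.01% for Mgp, above the difference between its replicates, and of 0.664% to 0.707% for Timp1.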
